A study of Mus musculus with 8 samples.

Results

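The TGF-beta, BMP and activin pathway was followed in mouse liver through 44 named genes, which were matched by symbol in the deposited tables and make up 44 of the 16796 genes listed there. The genes were divided by role into TGF-beta ligands, latent binders, activin and inhibin subunits, BMP ligands, extracellular antagonists, receptors, SMAD proteins, feedback inhibitors with corepressors, and target genes. RNA sequencing of whole liver was available from 4 wild-type (WT) mice (164, 165, 166 and 167) and 4 mice with a liver-specific knockout of E4bp4 (E4bp4-LKO; 143, 144, 145 and 179). All 8 animals ate a diet that induces non-alcoholic steatohepatitis (NASH) for 20 weeks, beginning at 2 months of age, so a mouse on normal chow is in neither group. Not stated in the labels are the Cre driver, the strain and the sex. Nfil3 encodes E4BP4, a basic leucine zipper repressor of transcription, and the title of the study concerns its part in fibrosis and stellate cell activation.

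TGF-beta ligands are secreted in a latent form, held by a propeptide and by latent TGF-beta binding proteins, and act after release by bringing together type I and type II receptor kinases. TGF-beta and activin receptors phosphorylate SMAD2 and SMAD3, BMP receptors phosphorylate SMAD1, SMAD5 and SMAD9, and both sets join SMAD4 and enter the nucleus. In the liver, TGF-beta is known for driving matrix production by stellate cells, and BMP6 from sinusoidal endothelium for inducing the iron hormone hepcidin in hepatocytes.

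Libraries held 23805540 to 32290265 estimated counts, and every pathway gene was counted in all 8 (5 to 4920 counts per gene and library). Levels are given as CPM, counts scaled to library size by TMM. Comparisons of level between genes are given as the deposited FPKM, which divides by transcript length and was not scaled by TMM. The scales can differ in direction between groups: Eng averaged 113 CPM in WT and 124 CPM in E4bp4-LKO, but 34.7 and 33.9 FPKM. Differences are log2 ratios of E4bp4-LKO over WT, where ± is the SE, with p adjusted over all genes tested (edgeR). Nfil3 measured 8.79 to 16.5 CPM in WT and 3.33 to 6.22 CPM in E4bp4-LKO, with no overlap (log2 ratio -1.35, adjusted p = 0.0121 by edgeR; exact two-sided permutation p = 0.0286, the smallest that the 70 arrangements allow). Hepatocyte markers were abundant in every library, with a summed level of 52573 to 67963 CPM for 5 genes in WT and 65921 to 82129 CPM in E4bp4-LKO. WT 164 stood apart: 32 of the 44 genes had their highest WT value in that liver. It also had the highest summed level of 8 activated stellate cell markers, at 1069 CPM. The other WT livers had 430 to 573 CPM, and the E4bp4-LKO livers 226 to 369 CPM. The TMM factor of WT 164 was the highest too, at 1.16, followed by WT 165 (1.09), 166 (1.00) and 167 (0.98). Every E4bp4-LKO liver had a smaller factor, between 0.94 and 0.96, so the scaling itself differed by group. In whole tissue, fewer cells of a type and less RNA per cell cannot be told apart.

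Short stretches of 5 promoters are shown as examples of those that carry sites E4BP4 or pathway SMADs are known to read. RefSeq promoters of GRCm38.p6, covering 250 bases before and 50 after the start of transcription, were matched for 33 of the 44 genes. Searched on both strands were the D-box cores TTATGTAA and TTACGTAA, bound by E4BP4, the SMAD palindrome GTCTAGAC, and GGCGCC, a site of BMP-activated SMADs. The stretches are printed 5′ to 3′ on the strand of the gene, with the match in capitals, and each promoter shown held 1 match, so that no motif overlapped another.
Smad9, chr3:54755501-54755566, plus strand: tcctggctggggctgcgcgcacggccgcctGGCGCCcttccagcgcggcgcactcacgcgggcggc
Tgfbi, chr13:56609479-56609544, plus strand: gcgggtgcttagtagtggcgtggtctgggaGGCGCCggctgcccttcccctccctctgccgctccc
Id2, chr12:25096288-25096342, minus strand: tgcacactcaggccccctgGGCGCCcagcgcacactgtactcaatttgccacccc
Smad6, chr9:64022056-64022085, minus strand: agcgccgcggagccgccaaagtGTCTAGAC
Inhba, chr13:16011698-16011765, plus strand: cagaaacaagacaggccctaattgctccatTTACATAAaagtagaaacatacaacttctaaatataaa
The match in Inhba is the reverse complement of TTATGTAA and was the 1 D-box core among the 33 matched genes, while 0.746% of 10588 tested genes with a promoter held that motif and 0.198% held TTACGTAA. GTCTAGAC stood in Smad6 alone of the 33, across its start of transcription, against 0.293% of tested genes. GGCGCC stood in 10 of 33, which is 30.3%, against 23.5% of tested genes and 11.9% of all 32851 promoters in the table. Of those shown, Smad9 and Tgfbi passed the test described below, and Id2 did not pass but had groups apart. Acvr1b, Bmpr1a, Bmpr2, Ltbp4, Ski, Smad5 and Tgfbr1 held it as well, and none of them passed. Among the 6 genes that passed and had a matched promoter, 2 held GGCGCC. These letters describe windows of 300 bases, and a match is not evidence of binding.

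Of the 44 pathway genes, 2 were higher and 5 were lower in E4bp4-LKO at an adjusted p under 0.05 (edgeR quasi-likelihood test, Benjamini-Hochberg over 13244 genes). The genes that rose were Smad9 and Inhbe, and those that fell were Tgfb2, Tgfb3, Inhbb, Tgif1 and Tgfbi. That is 15.9% of the pathway genes, beside 10.8% of all genes tested (4.36% higher and 6.48% lower). The groups did not overlap for 8 of 44, or 18.2%, beside 18.5% of all genes. The median log2 ratio, E4bp4-LKO over WT, was 0.06 for the pathway and 0.01 for all genes, with 25 estimates above 0 and 19 below. Of all genes called, 59.7% were lower, and 85.1% on library totals without TMM, where the median of all genes was -0.15 and 2 pathway genes were higher and 7 lower. DESeq2 called 4 pathway genes higher and 7 lower. The share with groups apart was close to that of all genes, and what follows concerns single genes. Without WT 164 the counts were 2 higher and 3 lower, without WT 165 they were 1 and 2, without E4bp4-LKO 143 they were 4 and 3, without E4bp4-LKO 144 they were 2 and 2, without E4bp4-LKO 145 they were 1 and 2, and without E4bp4-LKO 179 they were 3 and 1. Without WT 164 and 165 together, 0 rose and 2 fell (Tgfb3 and Inhbb), with 387 genes called in place of 1436.

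**Figure D1:**
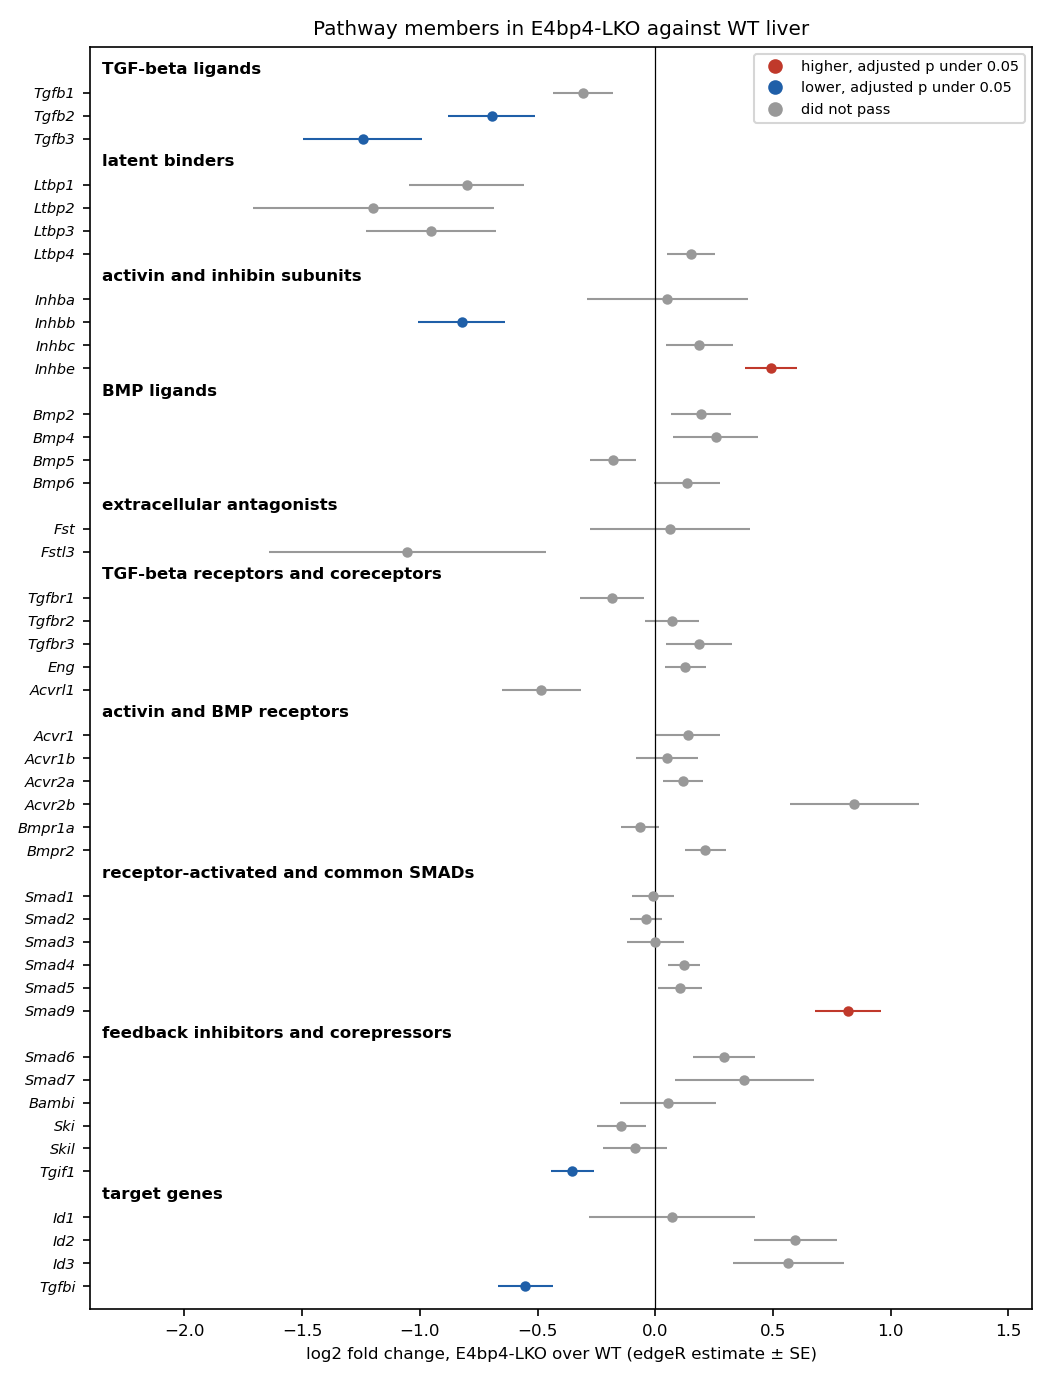
Log2 ratio of each of the 44 pathway genes, E4bp4-LKO over WT (x axis; edgeR estimate ± SE, 4 livers per group), ordered by role. Smad9 (0.82) and Inhbe (0.49) passed above 0, while Tgfb3 (-1.24), Inhbb (-0.82), Tgfb2 (-0.69), Tgfbi (-0.55) and Tgif1 (-0.35) passed below 0.

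Of the 3 TGF-beta ligands, Tgfb3 and Tgfb2 fell and Tgfb1 did not pass. Tgfb3 (Entrez Gene 21809) measured 5.61, 2.53, 3.02 and 3.32 CPM in WT 164 to 167, and 1.33, 1.68, 1.51 and 1.61 CPM in E4bp4-LKO 143, 144, 145 and 179. All E4bp4-LKO livers lay below all WT livers and within a narrow range, and WT 164 was the highest. The log2 ratio was -1.24 ± 0.25 (adjusted p = 0.0142), a level 2.37-fold lower, and it was -0.94 without WT 164 (adjusted p = 0.0142). Tgfb3 passed whichever of the 8 mice was left out, with adjusted p at most 0.0421. Tgfb2 (Entrez Gene 21808) measured 4.10, 2.90, 2.91 and 2.80 CPM in WT and 1.89, 2.27, 1.73 and 1.96 CPM in E4bp4-LKO. Its groups did not overlap, and the WT livers other than 164 agreed closely. The log2 ratio was -0.69 ± 0.18 (adjusted p = 0.0377), which passed without WT 167 but without none of the other mice in turn (adjusted p 0.0550 to 0.0925; log2 ratio -0.54 without WT 164). Tgfb1 (Entrez Gene 21803), the ligand most studied in liver fibrosis, measured 42.3, 31.9, 30.1 and 31.6 CPM in WT and 31.7, 25.99, 29.4 and 22.8 CPM in E4bp4-LKO. The groups overlapped, since E4bp4-LKO 143 lay within the WT range (log2 ratio -0.31 ± 0.13, adjusted p = 0.147; -0.18 without WT 164, adjusted p = 0.336). Per length, Tgfb1 was the most abundant ligand of the 3, at 17.3 ± 4.17 FPKM in WT and 12.4 ± 1.88 FPKM in E4bp4-LKO (SD, n = 4), against 1.13 ± 0.51 and 0.423 ± 0.0386 FPKM for Tgfb3 and 0.713 ± 0.194 and 0.390 ± 0.0455 FPKM for Tgfb2. Both ligands that fell were scarcer per length than Tgfb1.

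None of the 4 latent TGF-beta binding proteins passed in edgeR, with 3 estimates below 0 and 1 above, whereas Ltbp1 and Ltbp3 passed as lower in DESeq2 (adjusted p = 0.0152 and 0.00513) and on library totals (0.0370 and 0.0359). These extracellular proteins tether the latent ligand to matrix. Ltbp3 (Entrez Gene 16998) measured 18.2, 8.97, 7.93 and 9.62 CPM in WT and 4.85, 5.93, 7.72 and 4.60 CPM in E4bp4-LKO. The groups were apart by a small margin, between WT 166 and E4bp4-LKO 145. Its log2 ratio was -0.95 ± 0.28 (adjusted p = 0.0558), and -0.61 without WT 164 (adjusted p = 0.0600), and it passed without WT 166 (adjusted p = 0.0430). Ltbp1 spanned 5.68 to 10.9 CPM in WT and 3.11 to 5.89 CPM in E4bp4-LKO (log2 ratio -0.80, adjusted p = 0.0603), and passed without WT 166 as well (adjusted p = 0.0451). Ltbp2 spanned 2.49 to 11.3 CPM in WT and 1.15 to 2.81 CPM in E4bp4-LKO, and its log2 ratio of -1.20 (adjusted p = 0.165) was -0.49 without WT 164. Ltbp4, the most abundant per length at 15.1 ± 2.53 FPKM in WT, measured 64.9 to 84.6 CPM in WT and 68.8 to 89.2 CPM in E4bp4-LKO (log2 ratio 0.15, adjusted p = 0.362; -0.01 on library totals).

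Many but not all markers of stellate cells, and the markers of lipid-associated macrophages, were lower in E4bp4-LKO, as Tgfb3 and Tgfb2 were. Of 8 activated stellate cell and myofibroblast markers, 5 were lower (Col1a2, Col3a1, Timp1, Lox and Loxl2) and 0 higher, with none at 0 in the files and summed levels that did not overlap, as given above for WT 164 and the rest. The other 3 did not pass: Acta2, the actin of myofibroblasts, had a log2 ratio of 0.0043 (adjusted p = 0.990), Tagln of -0.17 (adjusted p = 0.186) and Col1a1 of -1.46 (adjusted p = 0.0597). Most of the summed level came from the collagens, with mean WT levels of 197 CPM for Col1a1, 145 CPM for Col1a2 and 249.1 CPM for Col3a1, against 7.68 CPM for Acta2. Of 9 quiescent stellate cell markers, 4 were lower (Lrat, Colec11, Rgs5 and Cygb) and 5 did not pass. Of the 9 estimates, 8 were below 0 and 1, Reln, was above it (log2 ratio 0.07, adjusted p = 0.757). The others that did not pass were Hand2 (-0.42, adjusted p = 0.0513), Pdgfrb (-0.62, 0.0883), Ngfr (-0.56, 0.124) and Des (-0.28, 0.210). The summed level of the 9 was 252 to 346 CPM in WT and 202 to 247 CPM in E4bp4-LKO. All 4 lipid-associated macrophage markers (Trem2, Gpnmb, Cd9 and Cd63) were lower, and their sum was 107 to 282 CPM in WT and 57.1 to 72.9 CPM in E4bp4-LKO, again highest in WT 164. The 5 cholangiocyte markers summed to 12.7 to 34.5 CPM in WT and 8.35 to 12.8 CPM in E4bp4-LKO, with 0 of the 4 tested passing. All 4 estimates were nonetheless below 0 (log2 ratio -1.41 to -0.54). The 9 sinusoidal endothelial markers summed to 305 to 341 CPM in WT and 301 to 432 CPM in E4bp4-LKO, with 0 passing. Their estimates lay on both sides of 0 (log2 ratio -0.27 to 0.46). The part of these cell types in the values of the ligands and binding proteins was not tested.

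Activin and inhibin subunits went in opposite directions: Inhbe rose, Inhbb fell, and Inhba and Inhbc did not pass. Each subunit pairs with another to form a secreted dimer. Inhbe (Entrez Gene 16326), a subunit made mainly by hepatocytes, measured 74.8, 79.1, 87.1 and 91.5 CPM in WT and 124, 92.7, 130 and 121 CPM in E4bp4-LKO. Its groups were separate, but E4bp4-LKO 144 lay close to the highest WT liver. Inhbe differed by a log2 ratio of 0.49 ± 0.11 (adjusted p = 0.0202), a 1.41-fold higher level. It was not passed without WT 165 (adjusted p = 0.0624), E4bp4-LKO 145 (0.0577) or E4bp4-LKO 179 (0.0543), nor in limma on log2(FPKM + 1) (0.32, adjusted p = 0.0509). Inhbb (Entrez Gene 16324), the activin B subunit, measured 5.93, 8.48, 8.94 and 7.97 CPM in WT and 6.03, 3.56, 4.08 and 4.02 CPM in E4bp4-LKO. Here WT 164 was the lowest WT liver and E4bp4-LKO 143 lay just above it, so that the groups overlapped by that pair. Inhbb differed by a log2 ratio of -0.82 ± 0.19 (adjusted p = 0.0221), or -0.94 without WT 164 (adjusted p = 0.0105). The call was lost without WT 165 (adjusted p = 0.0653), E4bp4-LKO 144 (0.0703), E4bp4-LKO 145 (0.0603) or E4bp4-LKO 179 (0.0612). Inhba (Entrez Gene 16323), the activin A subunit, whose promoter held the D-box core above, measured 2.28, 1.56, 1.16 and 0.874 CPM in WT and 0.888, 1.84, 1.32 and 2.10 CPM in E4bp4-LKO. The groups spanned nearly the same range (log2 ratio 0.05 ± 0.34, adjusted p = 0.943; -0.13 on library totals). Inhbc, the other hepatocyte subunit, spanned 54.0 to 60.6 CPM in WT and 45.6 to 79.1 CPM in E4bp4-LKO (log2 ratio 0.19, adjusted p = 0.433). Per length, Inhbe (40.9 ± 0.843 FPKM in WT, SD, n = 4) and Inhbc (29.8 ± 3.13 FPKM) stood above Inhbb (1.91 ± 0.249 FPKM) and Inhba (1.05 ± 0.514 FPKM) in this tissue.

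**Figure D2:**
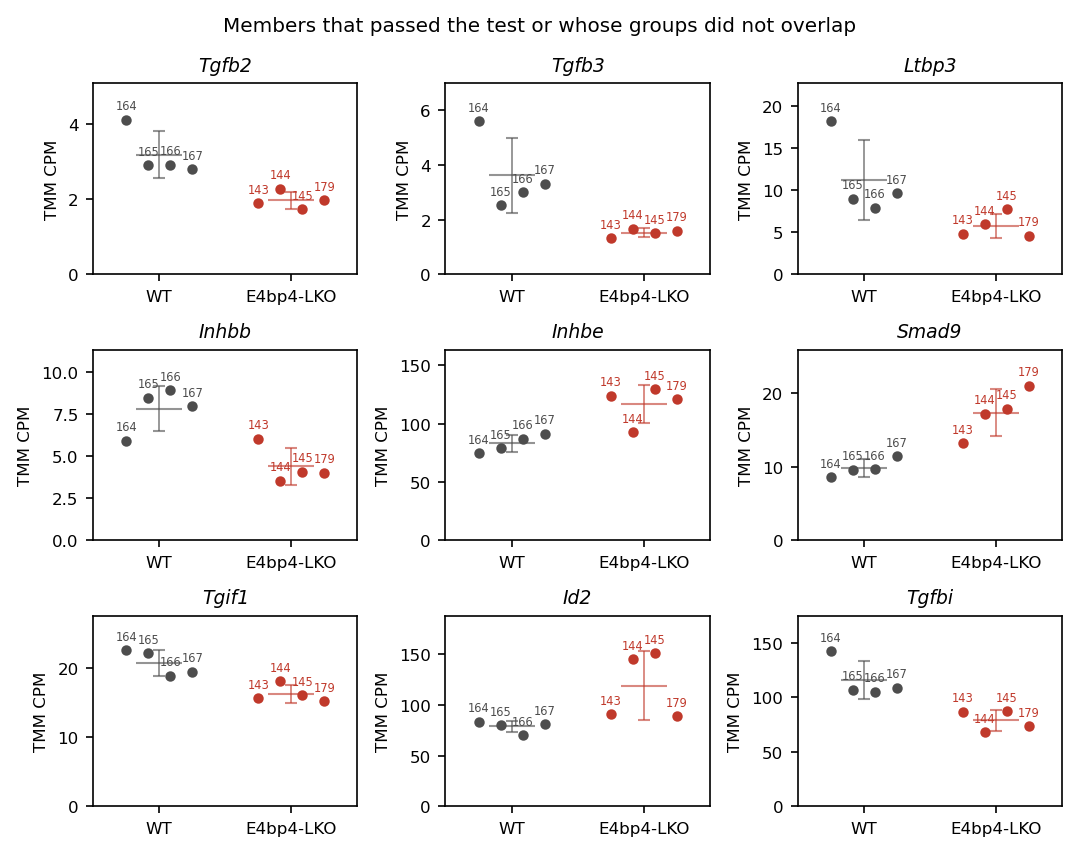
TMM-scaled CPM (y axis, from 0) in each liver for the 9 pathway genes that passed the test or whose groups did not overlap. Points are livers labelled with the mouse number, and bars are the mean ± SD of 4. Tgfb3 in E4bp4-LKO lies between 1.33 and 1.68 CPM, below every WT liver, and Smad9 lies between 13.2 and 20.9 CPM, above every WT liver.

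Of the BMP ligands Bmp2, Bmp4, Bmp5 and Bmp6, none passed the test and none had groups that were apart. Bmp6 (Entrez Gene 12161), the endothelial inducer of hepcidin, measured 4.22, 3.81, 3.58 and 3.11 CPM in WT and 4.18, 3.92, 3.86 and 4.24 CPM in E4bp4-LKO. The levels were close in all 8 livers, with WT 164 beside the highest E4bp4-LKO livers (log2 ratio 0.13 ± 0.14, adjusted p = 0.576; -0.03 on library totals). Bmp2 spanned 17.4 to 22.2 CPM in WT and 18.6 to 28.6 CPM in E4bp4-LKO (log2 ratio 0.20, adjusted p = 0.350). Bmp4 (0.26, adjusted p = 0.392) and Bmp5 (-0.18, adjusted p = 0.252) did not pass either. Per length, Bmp2 was the highest of the 4 in WT (5.83 ± 0.815 FPKM, SD, n = 4), followed by Bmp5 (4.35 ± 0.332), Bmp6 (1.62 ± 0.322) and Bmp4 (1.36 ± 0.395), of which the last pair did not differ beyond their spread. The antagonists that bind activin outside the cell were scarce and variable. Fst, which encodes follistatin, spanned 2.88 to 4.39 CPM in WT and 1.38 to 5.996 CPM in E4bp4-LKO (log2 ratio 0.06, adjusted p = 0.931; -0.25 without E4bp4-LKO 143). Fstl3, follistatin-like 3, spanned 0.526 to 2.86 CPM in WT and 0.185 to 1.09 CPM in E4bp4-LKO (log2 ratio -1.05 ± 0.59, adjusted p = 0.275), and -0.33 without WT 164.

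None of the 11 receptor and coreceptor genes passed, and in none were the groups apart. Tgfbr2 (Entrez Gene 21813), the type II receptor that binds TGF-beta first, measured 123, 122, 97.9 and 90.3 CPM in WT and 129, 104, 117 and 104 CPM in E4bp4-LKO. Its WT livers spread more widely than its E4bp4-LKO livers, and the ranges overlapped (log2 ratio 0.07 ± 0.11, adjusted p = 0.738; -0.10 on library totals). Tgfbr1, its type I partner, had a log2 ratio of -0.18 (adjusted p = 0.413), and the coreceptors Tgfbr3 (betaglycan) and Eng (endoglin) of 0.19 (adjusted p = 0.419) and 0.13 (adjusted p = 0.361). Acvrl1, the endothelial type I receptor ALK1, spanned 7.24 to 11.0 CPM in WT and 4.95 to 7.92 CPM in E4bp4-LKO (log2 ratio -0.48 ± 0.17, adjusted p = 0.0877). Acvr2b, a type II activin receptor at low level, spanned 0.665 to 1.16 CPM in WT and 1.11 to 2.28 CPM in E4bp4-LKO (log2 ratio 0.84 ± 0.27, adjusted p = 0.0719), and passed without E4bp4-LKO 143 (adjusted p = 0.0366) and in DESeq2 (0.0390). The BMP type II receptor Bmpr2 had a log2 ratio of 0.21 ± 0.09 (adjusted p = 0.136), while Bmpr1a (-0.07), Acvr1 (0.14), Acvr1b (0.05) and Acvr2a (0.12) had adjusted p from 0.407 to 0.845. Eng and Tgfbr2 were the receptors with the highest level per length in WT, at 34.7 ± 4.91 and 24.0 ± 5.41 FPKM (SD, n = 4).

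Among the 6 signal-carrying SMADs, Smad9 rose and the other 5 did not pass. Smad9 (Entrez Gene 55994), a BMP-activated SMAD, measured 8.58, 9.58, 9.61 and 11.4 CPM in WT and 13.2, 17.2, 17.9 and 20.9 CPM in E4bp4-LKO. Every E4bp4-LKO liver was above every WT liver. The log2 ratio was 0.82 ± 0.14 (adjusted p = 0.00709), a 1.76-fold higher level, and 0.76 without WT 164 (adjusted p = 0.0136). Smad9 passed whichever of the 8 mice was left out, with adjusted p at most 0.0267, and had an adjusted p = 0.0569 without WT 164 and 165 together. Its counts were fractional in all 8 libraries, so some reads were shared with other transcripts. The same held for Inhbe and Ltbp3 in all 8 libraries, and for Tgfb2 in 5. Per length Smad9 went from 1.89 ± 0.126 FPKM, the lowest of the 6 SMADs in WT, to 3.00 ± 0.527 FPKM (SD, n = 4). The other BMP-activated SMADs had estimates near 0, with a log2 ratio of -0.01 for Smad1 (SE 0.09, adjusted p = 0.960) and 0.10 for Smad5 (SE 0.09, adjusted p = 0.511). So did the TGF-beta-activated SMADs Smad2 (-0.04 ± 0.07, adjusted p = 0.758) and Smad3 (-0.0004 ± 0.12, adjusted p = 0.999), and the shared partner Smad4 (0.12 ± 0.07, adjusted p = 0.281). Smad4 was the most abundant per length, at 9.27 ± 1.13 FPKM in WT.

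**Figure D3:**
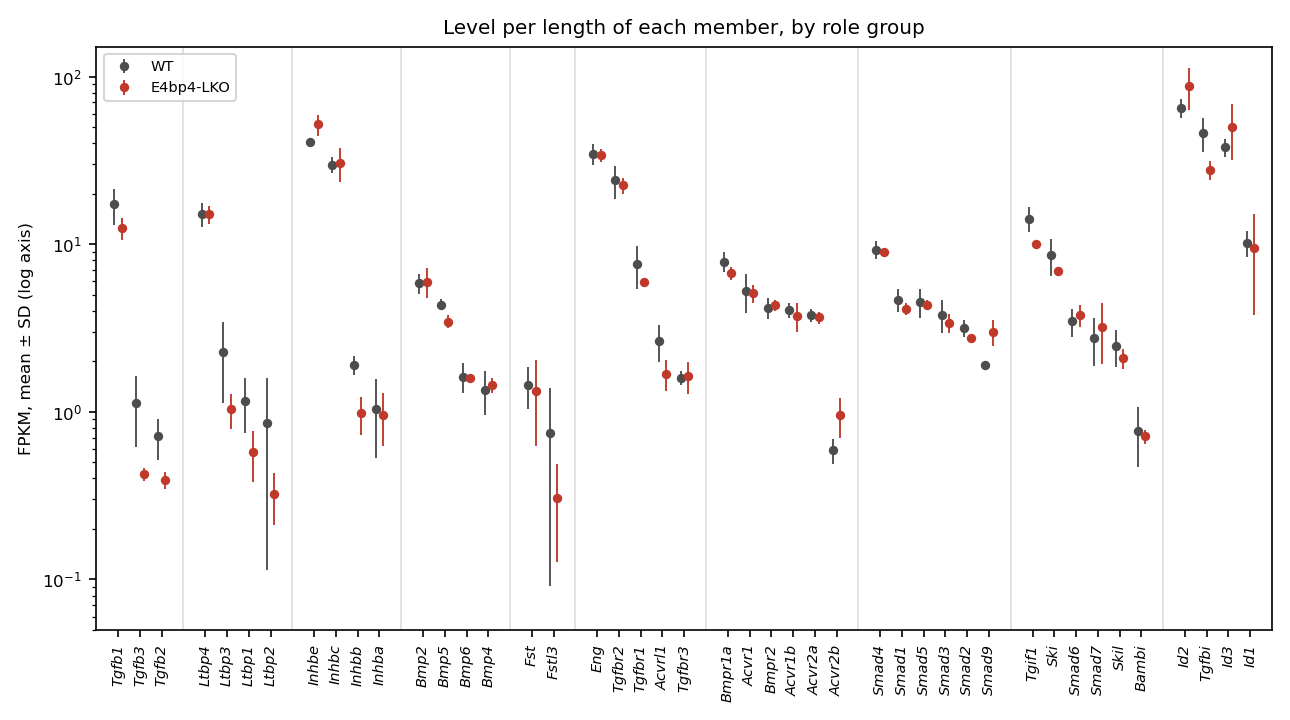
Deposited FPKM, not scaled by TMM (y axis, log scale, mean ± SD of 4 livers), of the 44 pathway genes. Genes are grouped by role and sorted within each group by the WT level. The genes span from 0.590 FPKM for Acvr2b to 65.2 FPKM for Id2 in WT, and the groups differ little for most receptors and SMADs.

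Of the 6 feedback inhibitors and corepressors, 1 fell and 5 did not pass. Tgif1 (Entrez Gene 21815), a homeodomain corepressor of SMAD2 and SMAD3, measured 22.6, 22.2, 18.9 and 19.5 CPM in WT and 15.7, 18.1, 16.1 and 15.2 CPM in E4bp4-LKO. The groups were separate by a small margin, between WT 166 and E4bp4-LKO 144. Tgif1 differed by a log2 ratio of -0.35 ± 0.09 (adjusted p = 0.0330). The call was lost without WT 164 (adjusted p = 0.0771), WT 165 (0.0963), E4bp4-LKO 143 (0.0616), E4bp4-LKO 145 (0.0755) or E4bp4-LKO 179 (0.0817), and in voom with quality weights (0.0579). Smad7 (Entrez Gene 17131), the inhibitory SMAD that TGF-beta itself induces, measured 14.4, 8.21, 9.12 and 14.9 CPM in WT and 11.1, 16.4, 23.1 and 9.86 CPM in E4bp4-LKO. The livers of each group differed as much as the groups did (log2 ratio 0.38 ± 0.30, adjusted p = 0.450). Smad6, the inhibitory SMAD of the BMP branch, spanned 9.03 to 11.5 CPM in WT and 10.2 to 14.3 CPM in E4bp4-LKO (log2 ratio 0.29 ± 0.13, adjusted p = 0.169). The decoy receptor Bambi (0.05, adjusted p = 0.898) and the SMAD corepressors Ski (-0.14, adjusted p = 0.401) and Skil (-0.09, adjusted p = 0.735) did not pass. Bambi and Ski both had 1 high WT liver, 164, at 5.38 and 55.8 CPM, where the other 7 livers lay at 2.96 to 4.37 CPM for Bambi and 39.2 to 41.5 CPM for Ski.

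The target genes did not move together: Tgfbi fell, and Id1, Id2 and Id3 did not pass. Tgfbi (Entrez Gene 21810), an extracellular matrix protein named for its induction by TGF-beta, measured 142, 107, 105 and 109 CPM in WT and 87.0, 68.3, 87.4 and 73.5 CPM in E4bp4-LKO. The groups did not overlap, and WT 164 was far above the other WT livers. The log2 ratio was -0.55 ± 0.12 (adjusted p = 0.0168), or -0.44 without WT 164 (adjusted p = 0.0203). The call was lost without E4bp4-LKO 144 (adjusted p = 0.0568) or E4bp4-LKO 179 (0.0506). Id2 (Entrez Gene 15902), one of the ID inhibitors of helix-loop-helix factors that BMP signals induce, measured 83.4, 79.7, 70.2 and 80.9 CPM in WT and 90.8, 145, 151 and 88.4 CPM in E4bp4-LKO. All E4bp4-LKO livers were above all WT livers, and E4bp4-LKO 144 and 145 were well above the other pair. The log2 ratio was 0.60 ± 0.18 (adjusted p = 0.0581), which passed without E4bp4-LKO 143 (adjusted p = 0.0282) or E4bp4-LKO 179 (0.0359), in DESeq2 (0.00868) and in voom (0.0449). Id1 (Entrez Gene 15901) measured 9.97, 8.24, 7.68 and 9.198 CPM in WT and 7.99, 7.64, 17.02 and 4.06 CPM in E4bp4-LKO. The WT livers lay close together, while the E4bp4-LKO group held both the highest and the lowest of the 8 (log2 ratio 0.07 ± 0.35, adjusted p = 0.925; -0.41 without E4bp4-LKO 145). Id3 spanned 29.5 to 36.5 CPM in WT and 30.4 to 72.1 CPM in E4bp4-LKO (log2 ratio 0.57 ± 0.23, adjusted p = 0.154), and passed without E4bp4-LKO 179 (adjusted p = 0.0412).

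Several genes that respond to BMP varied among the E4bp4-LKO livers. In E4bp4-LKO 143, 144, 145 and 179, Id3 measured 39.8, 72.1, 57.8 and 30.4 CPM, Smad6 10.6, 14.3, 12.7 and 10.2 CPM, and Atoh8, a transcription factor induced by BMP, 23.1, 37.4, 40.4 and 22.5 CPM. Hamp (Entrez Gene 84506), which encodes hepcidin, measured 224, 223, 336 and 380 CPM in WT and 402, 1004, 868 and 359 CPM in E4bp4-LKO. For Id2, Id3, Smad6, Smad7, Atoh8 and Hamp alike, 144 and 145 were the highest pair among the E4bp4-LKO livers, whereas Id1 was high in 145 only and Id4 was highest in 144 and 143. These 8 genes were set side by side after their values were seen. Bmp6 lay between 3.86 and 4.24 CPM in those 4 livers, where 144 and 145 were the lower pair (3.92 and 3.86 CPM). Its relation to the values of these genes was not tested. Hamp did not pass (log2 ratio 1.18 ± 0.36, adjusted p = 0.0693), but did without E4bp4-LKO 143 (adjusted p = 0.0475) or E4bp4-LKO 179 (0.0442) and in DESeq2 (0.0279). Its near-identical neighbour Hamp2, named after its values were seen, went the other way between groups, from 13.5 ± 2.33 to 5.64 ± 3.80 CPM (SD, n = 4). Hamp2 did not pass (log2 ratio -1.24, adjusted p = 0.121), but its groups were apart by a small margin (10.7 against 10.4 CPM). In E4bp4-LKO 143, 144, 145 and 179 it measured 4.63, 6.29, 10.4 and 1.25 CPM, so 144 and 145 were again the highest pair. Since such copies can share reads, the split between Hamp and Hamp2 is uncertain.

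**Figure D4:**
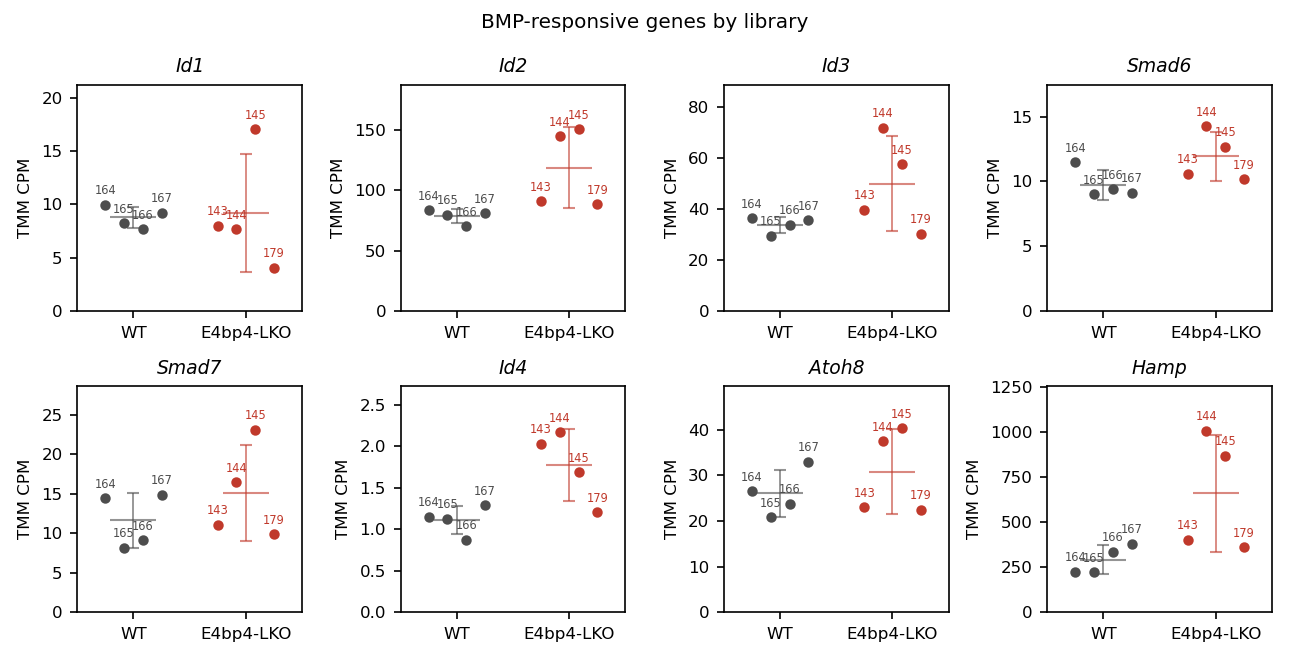
TMM-scaled CPM (y axis, from 0) of 8 BMP-responsive genes in each liver, labelled with the mouse number; bars are the mean ± SD of 4. E4bp4-LKO 144 and 145 are the highest pair of their group for Id2, Id3, Smad6, Smad7, Atoh8 and Hamp, with Hamp at 1004 and 868 CPM against 402 and 359 CPM in the other E4bp4-LKO livers.

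A wider list of 53 other genes of the pathway, of which 52 stood in the files and 40 were tested, had 2 higher and 6 lower genes and 32 that did not pass. That is 20% called, beside 10.8% of all genes, and the median log2 ratio was -0.15. The wider list was chosen with earlier results of these data known and includes matrix genes, so its share is a description only. The count was 1 higher and 12 lower on library totals, 4 and 10 in DESeq2, and 1 and 10 in limma on log2(FPKM + 0.1). The number higher was 0 without WT 164, WT 165, E4bp4-LKO 144 or E4bp4-LKO 145, and 1 without E4bp4-LKO 179, where that gene was Hamp. Ctgf (now Ccn2; Entrez Gene 14219), a matricellular protein induced by TGF-beta, measured 37.3, 30.5, 26.2 and 21.4 CPM in WT and 13.3, 11.5, 18.7 and 13.3 CPM in E4bp4-LKO. The groups were apart (log2 ratio -1.03 ± 0.19, adjusted p = 0.0113; -0.88 without WT 164, adjusted p = 0.0161). Pmepa1, a TGF-beta-induced inhibitor of SMAD signalling, fell from 13.8 ± 4.29 to 7.26 ± 0.736 CPM (SD, n = 4; log2 ratio -0.93, adjusted p = 0.0156). The matrix proteoglycans Dcn and Bgn, which bind TGF-beta, fell with log2 ratios of -0.55 (adjusted p = 0.0112) and -0.67 (adjusted p = 0.0225). Gdf15, a distant family member released under stress (-1.37, adjusted p = 0.00474), and the follistatin-related glycoprotein Fstl1 (-1.05, adjusted p = 0.0285) fell as well. Beside these genes, the summed level of the activated stellate cell markers was 430 to 1069 CPM in WT and 226 to 369 CPM in E4bp4-LKO, and its part in the values of Ctgf, Pmepa1, Dcn, Bgn and Fstl1 was not tested. Bmp7, a BMP ligand, rose from 6.03 ± 1.63 to 10.1 ± 1.66 CPM (log2 ratio 0.75, adjusted p = 0.0321), and so did Zfyve9, which presents SMAD2 and SMAD3 to the receptor (0.39, adjusted p = 0.0331). Bmp7 lost its call when WT 164, WT 165 or 1 of the 4 E4bp4-LKO mice was left out (largest adjusted p 0.0979), and the call of Zfyve9 was lost when WT 164, WT 165, E4bp4-LKO 144, E4bp4-LKO 145 or E4bp4-LKO 179 was left out (largest adjusted p 0.0922). Fstl1 lost its call when WT 165, E4bp4-LKO 143, E4bp4-LKO 144 or E4bp4-LKO 145 was left out (largest adjusted p 0.0831), and Bgn when WT 165, E4bp4-LKO 144 or E4bp4-LKO 179 was (0.0731). Without WT 164 the log2 ratios of Pmepa1, Fstl1, Dcn and Bgn were -0.69, -0.72, -0.48 and -0.48.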

How the data were processed

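RNA-seq of whole liver from 4 WT and 4 E4bp4-LKO mice was analysed from 1 deposited table per library. Reads were aligned with HISAT2, per the submitters' processing notes; for the quantifier, genome build and annotation, a name was not given in the sources used here. All deposited expected counts are estimated counts per gene without normalization (25.9% to 27.3% of entries per library are fractional), and the deposited FPKM values were scaled by the authors for transcript length and summed counts, per the file headers and the values. Of the pathway genes, 14 had fractional counts in at least 1 library. No pair of libraries agreed within sampling noise (lowest chi-square per degree of freedom, 7.52). Genes absent from a file were read as 0, 26 isoform entries were merged into their parent gene through RefSeq accessions, and 4 entries stayed unnamed.

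Expected counts were rounded, filtered (filterByExpr, minimum count 10, minimum total 15), TMM-scaled and tested with edgeR 4.0.16 in R 4.3.3 (glmQLFit and glmQLFTest, robust, two-sided), with Benjamini-Hochberg adjustment over 13244 genes and a threshold of 0.05. Adjusted p values are from this test unless another tool is named. The SE is the absolute log2 ratio divided by the square root of F. Alternatives were DESeq2 1.42.0, its size factors, library totals, voom and trend tests in limma 3.58.1 (FPKM with pseudocounts 1 and 0.1), other filters, and fits without single mice. The scripts were tested on simulated data. Nothing in the labels says whether RNA was prepared in batches. At these depths 3 counts equal 0.0929 to 0.126 CPM, a floor that covers counting error only.

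The pathway genes, lists, alternatives and rule for naming genes were chosen with earlier results of these data known. The rule gave values in every library for pathway genes that passed or whose groups did not overlap, for Tgfb1, Tgfbr2, Smad7, Inhba, Bmp6 and Id1, and named up to 8 other pathway genes that passed, plus Ctgf and Hamp; 1 further gene under the rule is not reported here. Marker lists also covered Kupffer cells (6 genes, summed 514 to 633 CPM in WT and 381 to 576 CPM in E4bp4-LKO), T and NK cells (3 genes, 1.92 to 2.99 and 1.74 to 3.61 CPM), B cells (2.70 to 3.61 and 2.34 to 3.48 CPM) and mesothelium (0.763 to 9.06 and 0.333 to 3.53 CPM). Of the Kupffer cell markers, Cd5l was lower (mean 284 CPM in WT, log2 ratio -0.56, adjusted p = 0.0123) and the others did not pass. Timd4 had groups apart in the other direction (1.16, adjusted p = 0.0809).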

Additional observations from a re-analysis of the deposited data

Results flagged for a closer look

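In 9 of 88 sets of 4 livers (each pathway gene in each group), 1 liver lay apart from the other 3 by a gap above 0.829 of the whole range. Chance gives this in about 5% of independent sets. These sets share the same livers, so the count cannot be set against that rate. In 8 of the 9, WT 164 was the high liver. It measured 42.3 CPM for Tgfb1 (others 30.1 to 31.9), 4.10 for Tgfb2 (2.80 to 2.91), 18.2 for Ltbp3 (7.93 to 9.62) and 18.0 for Acvr1 (12.5 to 13.1). It also measured 11.5 CPM for Smad6 (9.03 to 9.40), 5.38 for Bambi (2.96 to 3.22), 55.8 for Ski (39.9 to 41.4) and 142 for Tgfbi (105 to 109). Of these genes Tgfb2 lost its call without that liver and Tgfbi kept it, with the values given beside each gene above. The remaining set was Inhbc, with 60.6 CPM in WT 165 and 54.0 to 54.9 in the other WT livers.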

How the results depend on the processing

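The 7 pathway genes called and Nfil3 kept their direction under each alternative in which they were tested. Of 432 values for single genes with 1 mouse left out, 363 kept direction and call, 39 lost the call, 8 gained it and 22 changed sign; of 516 under other settings the counts were 427, 19, 9 and 61. The sign changes concern genes that did not pass.

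With 1 mouse left out, genes called ranged from 506 to 1539, pathway genes from 1 to 4 higher and 1 to 6 lower, their median log2 ratio from 0.0038 to 0.14, and other pathway genes from 0 to 3 higher and 4 to 8 lower. Over the same fits the log2 ratio spanned -0.054 to 0.052 for Smad1, -0.097 to 0.11 for Smad3, -0.033 to 0.30 for Bambi, -0.13 to 0.35 for Inhba, -0.25 to 0.33 for Fst, -0.0058 to 0.14 for Tgfbr2, -0.036 to 0.13 for Acvr1b, -0.17 to 0.0002 for Skil and -0.41 to 0.31 for Id1.

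Smad3 was 0.0013 with DESeq2 size factors, 0.0014 in DESeq2, 0.0027 with no count filter and 0.093 in voom, where Smad1 was 0.015. DESeq2 called 2238 genes, 4 pathway genes higher, and 4 other pathway genes higher and 10 lower. A filter of 5 CPM in 4 libraries tested 34 of the 44 pathway genes and left 3 lower. Without WT 164 and 165, 387 genes, 0 pathway genes higher and 2 lower, and 0 other pathway genes higher were called, the median was 0.15, and the sign changed for Tgfbr1 (0.10), Bmpr1a (0.019), Smad1 (0.061), Smad2 (0.027), Smad3 (0.15) and Skil (0.16).

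Library totals without TMM shifted the median of all genes to -0.15 and that of the pathway to -0.11, with 1 other pathway gene higher and 12 lower. Signs changed for Ltbp4 (-0.0087), Inhba (-0.13), Bmp6 (-0.031), Fst (-0.11), Tgfbr2 (-0.098), Eng (-0.033), Acvr1 (-0.031), Acvr1b (-0.11), Acvr2a (-0.038), Smad4 (-0.0404), Smad5 (-0.064), Bambi (-0.12) and Id1 (-0.094).

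In limma on log2(FPKM + 1), which tested 37 of the 44, 1 pathway gene was higher and 3 lower, the median was -0.048 and 1 other pathway gene was higher; with no filter 1 pathway gene was higher, the median was -0.087 and 0 other pathway genes were higher. Both gave Ltbp4 -0.0041, Inhba -0.048, Bmp6 -0.012, Fst -0.11, Tgfbr2 -0.074, Eng -0.026, Acvr1 -0.026, Acvr1b -0.099, Acvr2a -0.0301, Smad4 -0.032, Smad5 -0.041 and Id1 -0.23, and the latter Bambi -0.034. With a pseudocount of 0.1 the median was -0.071, 1 other pathway gene was higher and 10 lower, and the values were Ltbp4 -0.0041, Inhba -0.071, Bmp6 -0.012, Fst -0.24, Tgfbr2 -0.077, Eng -0.027, Acvr1 -0.028, Acvr1b -0.12, Acvr2a -0.037, Smad4 -0.034, Smad5 -0.047 and Id1 -0.26. Neither the library totals nor the deposited FPKM were scaled by TMM. In limma on log2(FPKM + 1) the median of all genes was -0.11, or -0.067 with no filter. With a pseudocount of 0.1 it was -0.13. The cause of the sign changes of single genes was not tested.

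No paired analysis was possible because the groups share no replicate numbers. Counts limit the scarce genes most: Fstl3 had 5 counts in its lowest library.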
